A study of Mus musculus with 28 samples.

Results

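The neurotrophins and their receptors are described here through 6 genes: the ligand genes Bdnf and Ntf3, the Trk receptor genes Ntrk2 and Ntrk3, the p75 receptor gene Ngfr and the sortilin gene Sort1. They were chosen by symbol, not by their values, from the 52636 genes of the count files. All 6 were found, and all 6 had enough counts to be among the 19171 genes tested.

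Neurotrophins are secreted growth factors, made as proneurotrophins and cut to their mature form by proprotein convertases or extracellular proteases. Mature BDNF binds the receptor tyrosine kinase TrkB (encoded by Ntrk2) and NT-3 binds TrkC (encoded by Ntrk3), which signal through Ras and MAP kinases, PI3 kinase and phospholipase C gamma. Proneurotrophins bind p75 (encoded by Ngfr) together with sortilin (encoded by Sort1), which also sorts BDNF inside the cell. In the cortex Bdnf is transcribed mainly by excitatory neurons, from several promoters that respond to neuronal activity, and BDNF signalling through TrkB is widely studied in stress and antidepressant responses.

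Total RNA was sequenced from needle punches of the ventromedial prefrontal cortex of 28 female mice, 7 in each of 4 groups. The control groups had been given a LacZ virus and the other groups one that the labels name Slit1 KD, written here as Slit1 knockdown. Within each virus the mice were unstressed or had 3 days of a stress procedure that the labels call sCVS. The strain, the age, the kind of viral vector and the cells it infects were not given in the sources used here. A punch holds infected and uninfected cells, and in such bulk RNA fewer cells of a type and less RNA per cell cannot be told apart.

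Slit1, the targeted gene, overlapped almost fully between the viruses. It ranged from 12.6 to 56.3 CPM (counts scaled to a library total of 1 M) in unstressed LacZ and from 9.48 to 59.9 CPM in unstressed Slit1 knockdown libraries, and from 9.28 to 33.9 and 7.48 to 30.9 CPM in the stressed ones. Every direction given for the knockdown therefore rests on the label. All 12 cortical excitatory neuron markers listed were found in the files, with a summed level of 938 to 1893 CPM, while the markers Dlx1, Gfap, Gpr17, P2ry12, Slc18a3 and Acp5 of other cell types were listed at 0 in every library. Other genes overlap 100% of the span of each of these 6, so they are not shown to be absent. There were 30.6 to 44.3 M counted fragments per library.

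There were 3 libraries that stood apart. Slit1 knockdown stressed replicate 2 held bone transcripts, with Ibsp at 218 CPM against a median of 0.136 CPM over all libraries. Slit1 knockdown stressed replicate 7 was high in markers of striatal and cholinergic neurons, with Drd2 at 17.5 CPM against a median of 1.56 CPM and the choline transporter gene Slc5a7 at 34.7 CPM against 2.52 CPM. It was not alone in this: Drd2 was also 10.7 CPM in LacZ unstressed replicate 6. In Slit1 knockdown unstressed replicates 6 and 2 Drd2 was 10.3 and 7.14 CPM. LacZ stressed replicate 4 was low in the cytotoxic T cell gene Gzmb, at 0.408 CPM against a median of 44.9 CPM. Values without these 3 libraries are given for some of the differences that moved by much, not for all.

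All libraries also differed along 1 axis, called the GC slope: how far a library's log2 CPM rises over genes for each 10 percentage points of GC in the gene's longest transcript, after centring each gene. It ran from -1.17 to 1.21, and the first principal component of log2 CPM, with 58.8% of the variance, followed it with an absolute r of 0.996. Group means of the GC slope lay between -0.017 and 0.010.

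The levels of the 6 genes differed widely. Counts covered whole gene spans with introns, so levels between genes were compared per kilobase, both of span and of exon. Per kilobase of span the mean levels were 3.32 CPM for Sort1, 1.80 for Ntrk2, 1.01 for Bdnf, 0.947 for Ntrk3, 0.0484 for Ntf3 and 0.0127 for Ngfr. On this scale Sort1 lay above Ntrk2 in 28 of 28 libraries and Ntrk2 above Bdnf in 26 of 28, while Bdnf lay above Ntrk3 in 14 of 28, so these 2 were not ordered. Per kilobase of exon they were 33.9 CPM for Sort1, 30.5 for Ntrk2, 17.6 for Ntrk3, 8.46 for Bdnf, 1.85 for Ntf3 and 0.0698 for Ngfr. There Sort1 lay above Ntrk2 in 15 of 28 libraries, and every lower pair of neighbours kept its order in 28 of 28. On both scales the Trk receptors and sortilin stood far above NT-3, and p75 was the lowest.

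Bdnf (ENSMUSG00000048482, GRCm38 chromosome 2, 109674700 to 109727007, plus strand) encodes the most studied neurotrophin of the adult cortex, and 11.9% of its counted span is exonic. Its lowest, median and highest levels were 31.9, 46.3 and 96.0 CPM in unstressed and 29.5, 56.1 and 73.7 CPM in stressed LacZ libraries. In unstressed Slit1 knockdown libraries they were 26.7, 33.5 and 119.4 CPM, and in stressed ones 27.7, 41.7 and 83.1 CPM. All groups overlapped, and the widest was Slit1 knockdown unstressed, which held both the lowest and the highest of the 28 values and nothing between 33.5 and 73.7 CPM. Means were 53.5 ± 23.4 and 53.2 ± 15.8 CPM (SD, n = 7) under LacZ without and with stress, and 57.5 ± 35.9 and 46.2 ± 19.4 CPM (SD, n = 7) under Slit1 knockdown.

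No comparison moved Bdnf beyond this spread. The log2 fold change of the knockdown label was 0.10 ± 0.33 (SE) without stress and -0.20 ± 0.33 with stress, and that of stress was -0.01 ± 0.33 under LacZ and -0.32 ± 0.33 under Slit1 knockdown, each with an adjusted p of 1 (edgeR's quasi-likelihood test, Benjamini-Hochberg adjustment). The 95% confidence intervals of these 4 ran from as low as 0.501 of the level to as high as 1.72 times it, so changes within that range were not excluded. The interaction of label and stress was -0.31 ± 0.47. Single libraries set the size of these values: without Slit1 knockdown unstressed replicate 7, the highest Bdnf of all, stress under Slit1 knockdown gave -0.013 and the interaction -0.011, and the label without stress turned to -0.18. Without the 3 libraries that stand apart, the label with stress gave -0.0046, stress under Slit1 knockdown -0.18 and the interaction -0.11. A predicted gene overlaps 3.62% of the Bdnf span and had 303 fragments over all libraries. Since strand was not used in counting, its reads and those of Bdnf cannot be told apart where they overlap.

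Ntf3 (ENSMUSG00000049107, chromosome 6, 126101412 to 126166910, minus strand), the gene of NT-3, was measured on 41 to 334 fragments per library. Its lowest, median and highest levels were 2.25, 3.61 and 5.89 CPM in unstressed and 1.39, 2.56 and 4.60 CPM in stressed LacZ libraries. They were 2.16, 2.97 and 6.90 CPM in unstressed and 1.37, 2.89 and 3.73 CPM in stressed Slit1 knockdown libraries. Within each virus 6 of 7 stressed libraries lay below the unstressed mean, and the groups overlapped. Under LacZ the log2 fold change of stress was -0.46 ± 0.28 (SE, unadjusted p = 0.113), and under Slit1 knockdown it was -0.49 ± 0.28 (unadjusted p = 0.0927), with an adjusted p of 1 for both in edgeR. The label itself gave -0.05 ± 0.28 without stress and -0.08 ± 0.28 with stress. Without the 3 libraries that stand apart, the label with stress gave -0.25 and stress under Slit1 knockdown -0.68. The interaction went from -0.03 to -0.20.

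Averaged over both viruses, a comparison added after seeing the data, the stress difference of Ntf3 was -0.48 ± 0.20 (SE), with a 95% interval from -0.89 to -0.07 (edgeR, unadjusted p = 0.0241, adjusted p = 1). It was -0.58 without the 3 libraries that stand apart (adjusted p = 0.834). Slit1 knockdown unstressed replicate 2, with the highest Ntf3 of all libraries, mattered most: without it the averaged value was -0.36 (unadjusted p = 0.0649), and the value under Slit1 knockdown was -0.26.

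Ntrk2 (ENSMUSG00000055254, chromosome 13, 58806569 to 59133970, plus strand), the gene of TrkB, varied least of the 6, with an SD of 0.21 on the log2 scale over 28 libraries where the median of all genes tested was 0.55. Its lowest, median and highest levels were 519, 625 and 719 CPM in unstressed and 463, 554 and 698 CPM in stressed LacZ libraries. They were 569, 602 and 829 CPM in unstressed and 464, 532 and 641 CPM in stressed Slit1 knockdown libraries. Stressed and unstressed libraries overlapped, with 5 of 7 stressed LacZ and 6 of 7 stressed Slit1 knockdown libraries below the matching unstressed mean. The log2 fold change of stress was -0.14 ± 0.12 (SE) under LacZ and -0.23 ± 0.12 under Slit1 knockdown (edgeR, unadjusted p = 0.282 and 0.0727, adjusted p = 1). Averaged over both it was -0.18 ± 0.09 (unadjusted p = 0.0455, adjusted p = 1), and with single libraries left out it lay between -0.21 and -0.15. The label gave 0.01 ± 0.12 without stress and -0.09 ± 0.12 with stress, with 95% intervals that together ran from -0.34 to 0.27.

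Ntrk3 (ENSMUSG00000059146, chromosome 7, 78175959 to 78738012, minus strand) encodes TrkC, the main receptor of NT-3. Its lowest, median and highest levels were 373, 467 and 787 CPM in unstressed and 332, 505 and 630 CPM in stressed LacZ libraries. They were 368, 673 and 750 CPM in unstressed and 391, 472 and 604 CPM in stressed Slit1 knockdown libraries. The highest group median was that of Slit1 knockdown unstressed, where 4 of 7 libraries lay between 673 and 750 CPM, and all groups overlapped. Stress gave a log2 fold change of -0.13 ± 0.19 (SE) under LacZ and -0.33 ± 0.19 under Slit1 knockdown (edgeR, unadjusted p = 0.488 and 0.0912, adjusted p = 1), where 6 of 7 stressed libraries lay below the unstressed mean. Under LacZ the value was -0.020 without LacZ unstressed replicate 5, the highest Ntrk3 of all. The label gave 0.14 ± 0.19 without stress and -0.05 ± 0.19 with stress.

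Ngfr (ENSMUSG00000000120, chromosome 11, 95568818 to 95587735, minus strand) encodes p75, which in the adult forebrain is best known from cholinergic neurons of the basal forebrain. It had 0 to 41 fragments per library with a median of 8.5. In the 4 libraries without a fragment, a limit of 3 fragments allows levels up to 0.0905 to 0.158 CPM, for counting error alone. Its lowest, median and highest levels were 0, 0.198 and 0.293 CPM in unstressed and 0, 0.145 and 0.639 CPM in stressed LacZ libraries. They were 0, 0.141 and 0.392 CPM in unstressed and 0.0645, 0.391 and 1.04 CPM in stressed Slit1 knockdown libraries. The groups overlapped, and 5 of 7 stressed Slit1 knockdown libraries lay above the mean CPM of either group they are compared with. The highest of all was replicate 7 of that group, the library high in striatal and cholinergic markers, where the acetylcholine synthesis gene Chat was 3.50 CPM against a median of 0.472 CPM and Isl1 was 13.3 CPM against 0.119 CPM.

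The log2 fold change of Ngfr was 1.03 ± 0.70 (SE) for the label with stress and 1.03 ± 0.70 for stress under Slit1 knockdown, and neither passed (edgeR, unadjusted p = 0.146 and 0.144, adjusted p = 1). Without replicate 7 of the Slit1 knockdown stressed group they were 0.63 and 0.64, and without the 3 libraries that stand apart 0.24 and 0.32. Without LacZ stressed replicate 2, the highest Ngfr among LacZ libraries, the label with stress gave 1.69. With the GC slope as a covariate the values were 1.37 and 1.36 (unadjusted p = 0.0233 and 0.0237, adjusted p = 0.997 and 0.583). The interaction was 0.67 ± 1.02, and -0.12 without the 3 libraries.

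Sort1 (ENSMUSG00000068747, chromosome 3, 108284082 to 108361511, plus strand) encodes sortilin, a Vps10 domain receptor. Its lowest, median and highest levels were 187, 245 and 440.5 CPM in unstressed and 182, 256 and 429.8 CPM in stressed LacZ libraries. They were 174, 246 and 290.0 CPM in unstressed and 152, 227 and 318 CPM in stressed Slit1 knockdown libraries. The highest 3 values of all 28 were in LacZ libraries, and the groups overlapped with close medians. The log2 fold change of the label was -0.23 ± 0.22 (SE) without stress and -0.16 ± 0.22 with stress, and that of stress was -0.10 ± 0.22 under LacZ and -0.03 ± 0.22 under Slit1 knockdown, with an adjusted p of 1 for each in edgeR. The label without stress gave -0.092 without LacZ unstressed replicate 1, and turned to 0.0074 with a title number above 20 as a covariate. The title number is the number in a sample's title, above 20 in 13 libraries. Such numbers were more common in unstressed Slit1 knockdown than in unstressed LacZ libraries, so this covariate is partly confounded with the label. With stress the label gave -0.0063 without LacZ stressed replicate 4, and -0.0029 without the 3 libraries that stand apart, where stress under LacZ gave -0.25.

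**Figure D1:**
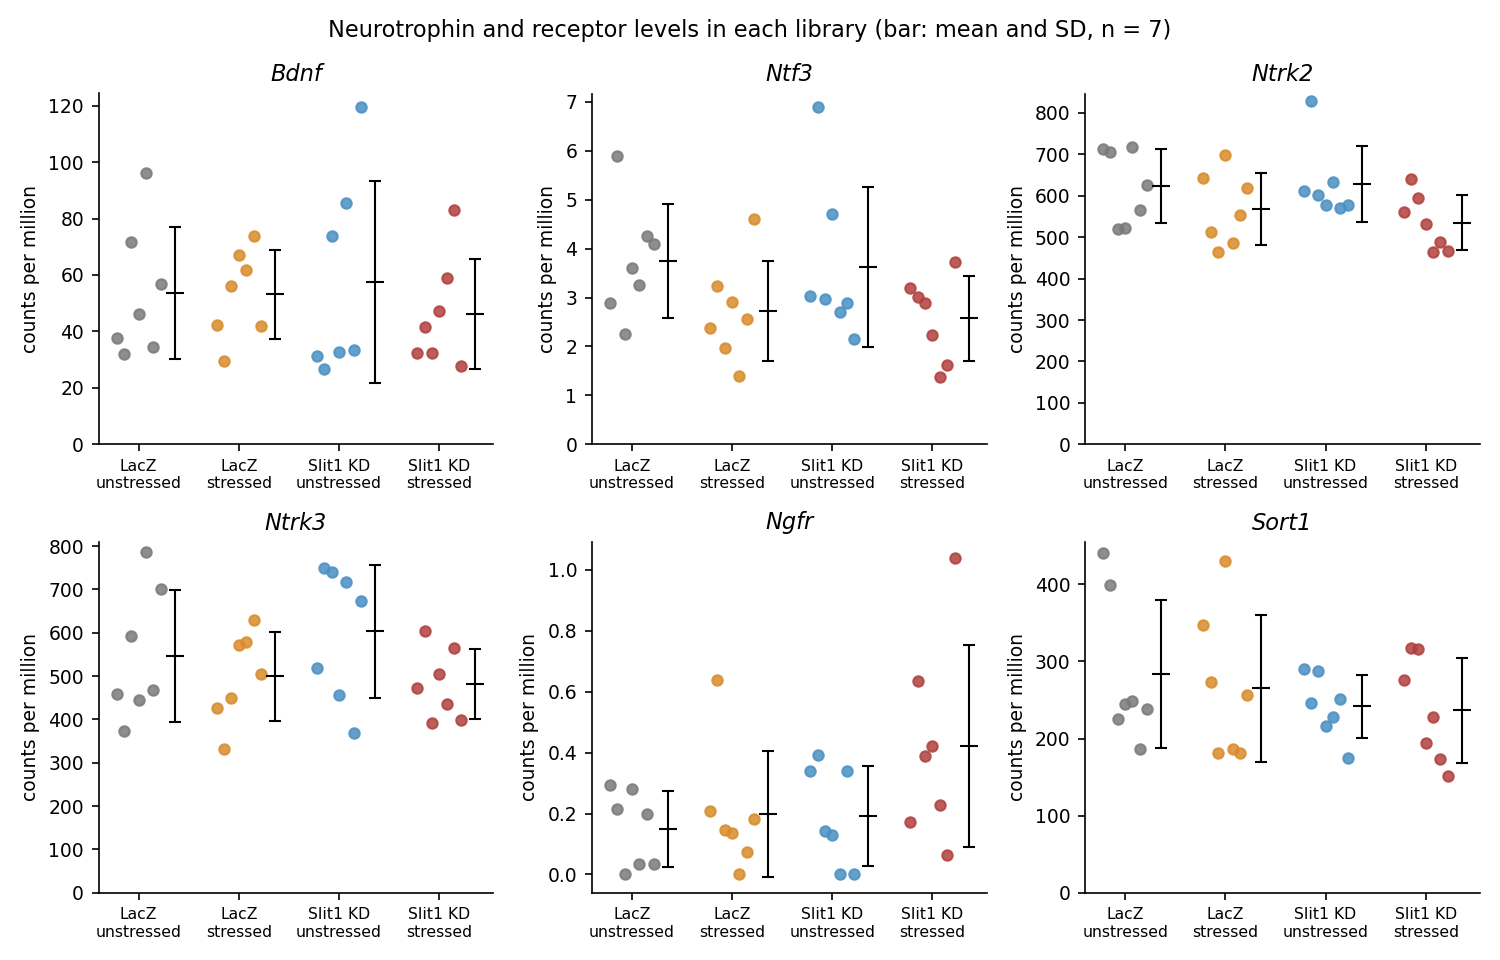
Levels of the 6 genes in every library, in CPM on linear axes, by group. Points are libraries and the black bar is the mean with its SD (n = 7). The groups overlap in every panel, and the highest Ngfr value, 1.04 CPM, is in Slit1 knockdown stressed replicate 7.

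In the 4 comparisons, the interaction and the 2 averages, 0 of 6 members passed an adjusted p under 0.05 in edgeR, as did 0% of the 19171 genes. DESeq2 also called 0 genes. At an unadjusted p under 0.05 edgeR had 172 genes (0.897%) for the label without stress, 158 (0.824%) with stress, 77 (0.402%) for stress under LacZ, 343 (1.79%) under Slit1 knockdown, 68 (0.355%) for the interaction, 291 (1.52%) for the averaged label and 424 (2.21%) for averaged stress. DESeq2 had 253, 175, 123, 473, 73, 373 and 606 in the same order. The members among them in edgeR were Ntf3 and Ntrk2 for averaged stress, 2 of 6.

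With the GC slope as a covariate, 0 of 6 members again passed and 0% of all genes did. The shares of all genes at an unadjusted p under 0.05 were then 5.1%, 2.21%, 1.87%, 8.5%, 0.882%, 7.38% and 10.2% in that order. Members below it were Ngfr for the label with stress, Ngfr and Ntrk2 for stress under Slit1 knockdown, and Ntf3 and Ntrk2 for averaged stress. In this fit averaged stress was -0.48 for Ntf3 and -0.19 for Ntrk2 (unadjusted p = 0.0141 and 0.0114, adjusted p = 0.416 for both).

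**Figure D2:**
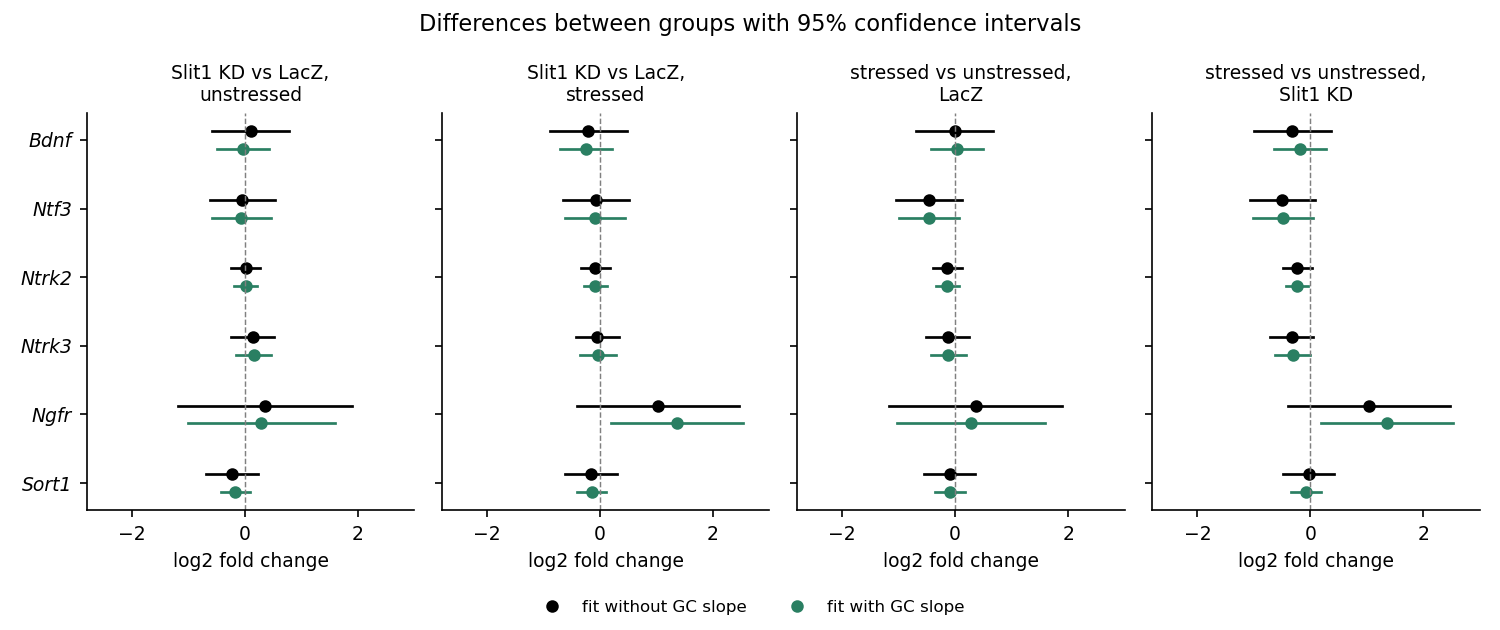
Log2 fold changes of the 6 genes with 95% confidence intervals in the 4 comparisons, from the fit without (black) and with (green) the GC slope of each library. Every black interval crosses 0, and the green intervals that do not are those of Ngfr for the label with stress (1.37) and of Ngfr (1.36) and Ntrk2 (-0.24) for stress under Slit1 knockdown, none of which passed adjustment.

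Between libraries the members moved with the GC slope, in opposite directions. Bdnf fell along it, with r = -0.72 and rho = -0.71 over 28 libraries (permutation p = 6.00e-05, adjusted p = 1.08e-04 over all genes), and so did Ntrk3, with r = -0.50 and rho = -0.49 (permutation p = 0.00673, adjusted p = 0.00962). Sort1 rose, with r = 0.80 and rho = 0.80 (permutation p = 1e-05, the smallest the permutations can give, adjusted p = 1.98e-05), and so did Ngfr, with r = 0.64 and rho = 0.66 (permutation p = 3.60e-04, adjusted p = 5.92e-04). Without the 2 libraries farthest from the median slope, LacZ unstressed replicate 1 and Slit1 knockdown unstressed replicate 7, r was -0.68 for Bdnf, -0.47 for Ntrk3, 0.74 for Sort1 and 0.60 for Ngfr. Ntrk2 had r = 0.41 (adjusted p = 0.0389) and rho = 0.37 (adjusted p = 0.0711), and Ntf3 had r = 0.34 (adjusted p = 0.0972). Relations of this size were general: the median absolute r over all genes was 0.743, and 52.6% of genes had an absolute r as high as that of Bdnf.

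The sign of r followed the GC content of the longest transcript. The slope was fitted on this same GC content, so such a split is built into it and is no separate finding. Bdnf at 40.9% GC and Ntrk3 at 43.6% had a negative r, and Ntrk2 at 48.6%, Ntf3 at 48.9%, Sort1 at 51.0% and Ngfr at 58.6% a positive one. The coding sequences taken alone did not split that way. Coding bases can be part of the longest transcript, so their GC content is not independent of the slope. The coding sequences had 52.1% GC in Bdnf and 53.7% in Ntrk3, against 49.6% in Ntf3, 53.1% in Ntrk2, 53.5% in Sort1 and 61.9% in Ngfr. Removing the GC slope took the SD of log2 CPM from 0.61 to 0.43 for Bdnf and from 0.40 to 0.25 for Sort1, but only from 0.54 to 0.52 for Ntf3 and from 0.21 to 0.20 for Ntrk2. The share of mitochondrial counts, 2.30% to 14.2% of a library, also moved with some members: Bdnf had r = 0.76 and rho = 0.76 (adjusted permutation p = 2.77e-05 for r) and Ngfr r = -0.65 and rho = -0.65 (adjusted permutation p = 4.01e-04 for r), which were 0.66 and -0.53 without the 2 farthest libraries. Ntrk3 (r = 0.44) and Sort1 (r = -0.52) passed too, and Ntf3 and Ntrk2 did not (adjusted permutation p = 0.0885 and 0.227). As high an absolute r was found in 32.0% of genes for Bdnf and 49.3% for Ngfr. With the GC slope removed neither passed (r = 0.42 and -0.28, adjusted permutation p = 0.145 and 0.345), and Sort1 turned to 0.45. The part of RNA quality in these levels was not tested.

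**Figure D3:**
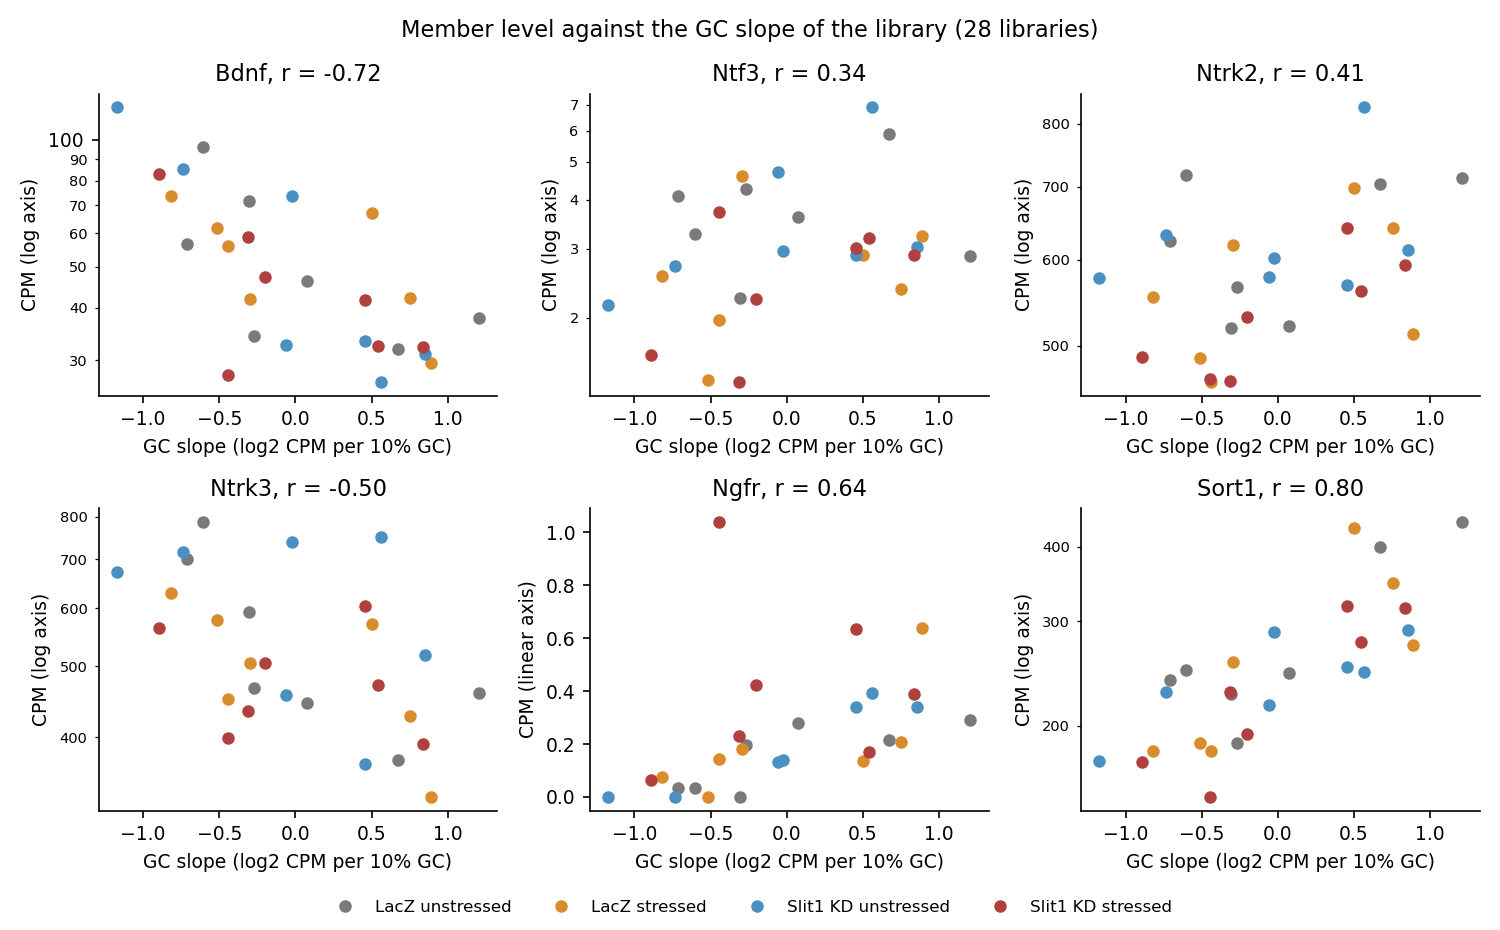
Level of each gene in CPM (log axis, linear for Ngfr) against the GC slope of the library, for 28 libraries coloured by group. Bdnf falls (r = -0.72) and Sort1 rises (r = 0.80) along the slope, and the 4 groups are mixed along it.

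Among themselves the members form 15 pairs, each tested by permutation over the 28 libraries with adjustment over all 19170 other genes. The ligands moved oppositely: Bdnf and Ntf3 had r = -0.56 and rho = -0.58 (permutation p = 0.00175, adjusted p = 0.00346), with r = -0.61 without the 2 farthest libraries. Removing group means and the GC slope left -0.62. Bdnf and Ngfr had the highest absolute r of the 15, at r = -0.79 and rho = -0.77 (adjusted permutation p = 8.43e-05), and -0.62 after that removal. Both relations had many equals, since 51.7% of genes had an absolute r with Bdnf as high as Ntf3 and 6.04% as high as Ngfr. Ngfr had a median of only 8.5 fragments. In the 4 libraries without an Ngfr fragment, Bdnf ran from 61.9 to 119.4 CPM, against a median of 44.3 CPM over all libraries.

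Bdnf rose with Ntrk3, with r = 0.65 and rho = 0.59 (adjusted permutation p = 5.86e-04) and 0.50 after removal of group means and the slope. Ntrk2 rose with Sort1, with r = 0.66 and rho = 0.69 (adjusted permutation p = 0.00263), and 0.60 after removal. Ntf3 and Ntrk2 had r = 0.61 (adjusted permutation p = 0.0406), but the rank relation did not pass (rho = 0.47, adjusted p = 0.230) and r was 0.44 without the 2 farthest libraries. Other pairs were closer after removal: Bdnf and Sort1 went from -0.28 to 0.70 and Ntrk2 and Ntrk3 from 0.37 to 0.70.

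The members were set beside library measures in 96 relations. The measures were the cell type marker lists, the GC slope and the mitochondrial share. Ntrk2 rose with the excitatory neuron list, with r = 0.63 and rho = 0.59 (adjusted permutation p = 0.00954), as did Ntrk3, with r = 0.57 and rho = 0.57 (adjusted permutation p = 0.0227). These were 0.58 and 0.51 without the 2 farthest libraries, and 0.67 and 0.69 with the GC slope removed. Both receptors fell with the 7 T cell genes, Ntrk2 with r = -0.53 and rho = -0.57 (adjusted permutation p = 0.0279) and Ntrk3 with r = -0.58 and rho = -0.59 (adjusted permutation p = 0.00883), and without the 2 farthest libraries r was -0.51 and -0.64.

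Other lists had a higher absolute r with a member. Ntrk3 had -0.73 with microglia, -0.73 with endothelium and -0.64 with oligodendrocyte precursors, which were -0.68, -0.67 and -0.53 with the GC slope removed and passed either way. Bdnf had -0.81 with oligodendrocyte precursors and -0.73 with microglia, which were -0.56 (adjusted permutation p = 0.0311) and -0.33 (adjusted permutation p = 0.163) after removal. As high an absolute r was common, in 34.1% of genes for the oligodendrocyte precursor list and Bdnf. Ntrk2 did not pass with the astrocyte list (r = 0.17, adjusted permutation p = 0.551), of which 8 of 9 genes were tested, although astrocytes are known to express a truncated TrkB. The excitatory neuron list summed to 1069 to 1893 CPM in unstressed and 1120 to 1528 CPM in stressed LacZ libraries, and to 1041 to 1676 and 938 to 1622 CPM in the Slit1 knockdown ones. The part of cell makeup in the lower stressed values of Ntrk2 and Ntrk3 was not tested.

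Bdnf and Ngfr went opposite ways with the striatal neuron list. Before the GC slope was removed r was -0.50 for Bdnf and 0.50 for Ngfr (adjusted permutation p = 0.148 and 0.154), with rho = -0.64 and 0.66 (adjusted p = 0.0153 and 0.0113). With the slope removed r was -0.65 and 0.60 (adjusted permutation p = 0.00855 and 0.0370), but -0.41 and 0.32 without the 3 libraries that stand apart. Replicate 7 of the Slit1 knockdown stressed group, with the highest striatal sum at 318.8 CPM against a median of 79.2 CPM, had the highest Ngfr of all and the lowest Bdnf of its group, 27.7 CPM.

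The other genes of the pathway came from 9 lists of 153 genes, of which 146 were tested, and 0 of the 146 passed in either direction in any of the 4 comparisons (edgeR, where 0% of all genes passed). Above and below 0 were 68 and 78 of them for the label without stress, 45 and 101 with stress, 54 and 92 for stress under LacZ, and 52 and 94 under Slit1 knockdown. All genes also leaned below 0, with 47.1%, 42.3%, 45.5% and 47.5% above 0 in the same order. With the GC slope as a covariate 67, 53, 66 and 61 of the 146 were above 0. Ntf5, the gene of the ligand NT-4, had at most 20 fragments in a library and was not tested.

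The Vps10 domain relatives of sortilin were all expressed, with 235 ± 75.9 CPM for Sorcs1, 37.8 ± 26.1 CPM for Sorcs2, 171.6 ± 43.3 CPM for Sorcs3 and 275 ± 56.8 CPM for Sorl1 (SD, n = 28). Their log2 fold changes for stress were all below 0, from -0.04 for Sorl1 to -0.32 for Sorcs2 under LacZ and from -0.11 for Sorl1 to -0.52 for Sorcs2 under Slit1 knockdown. None of them passed.

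The pathway genes with the smallest p for stress included Pcsk5, a proprotein convertase gene, at -0.35 ± 0.21 (SE) on the log2 scale under LacZ and -0.57 ± 0.21 under Slit1 knockdown (edgeR, unadjusted p = 0.112 and 0.0132, adjusted p = 1). In the latter it went from 131.5 ± 37.1 to 88.7 ± 20.3 CPM (SD, n = 7). The immediate early transcription factor genes Nr4a3 and Egr4 had -0.45 ± 0.19 and -0.52 ± 0.22 under Slit1 knockdown. Under LacZ the smallest p also included Rest, a repressor of neuronal genes, at 0.43 ± 0.27, Egr4 at -0.30 ± 0.22 and Sorcs3 at -0.22 ± 0.19. None of these passed.

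For the label without stress the smallest p were those of the protease gene Mmp3, from 0.427 to 0.0726 CPM, the activin subunit gene Inhba at a log2 fold change of 0.91 ± 0.41 (SE), the somatostatin gene Sst at -0.28 ± 0.17 and the MAP kinase phosphatase gene Dusp4 at -0.23 ± 0.18. With stress they were those of Mmp9, Egr2 at -0.44 ± 0.22, the convertase gene Pcsk6 at 0.76 ± 0.44 and Sst at -0.26 ± 0.17. Mmp9, a metalloprotease gene that bone cells also express, was 95.5 CPM in the library with the bone transcripts and at most 1.32 CPM in every other library, so its log2 fold changes of 5.59 with stress and 4.93 for stress under Slit1 knockdown rest on that library. Pcsk6 was also highest there, at 38.9 CPM where the next library had 14.8 CPM, and Mmp3 was highest in LacZ unstressed replicate 3, at 1.94 CPM. For the interaction the smallest p were those of Mmp9, Mmp3, Inhba and Dusp4, and none passed. Of the 24 genes induced by TrkB signalling or activity, 23 were below 0 for the label with stress and 16 without stress. Their medians were -0.24 and -0.12, against -0.03 and -0.01 for all genes, of which 42.3% and 47.1% were above 0. For stress, 13 of the 24 were above 0 under LacZ and 7 under Slit1 knockdown, where 45.5% and 47.5% of all genes were. None of the 24 passed in any of these comparisons. The list is named for its values. Many of its genes moved with Bdnf between libraries, as given below, so they are not separate observations.

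The genes most like each member were taken by Pearson's r of log2 CPM over 28 libraries after group means and the GC slope were removed. They are the highest of 19170 genes, so their r is a description. Among the genes nearest to Bdnf were Egr3 (r = 0.94), an activity-induced transcription factor gene, and Pcsk1 (r = 0.92), a proprotein convertase gene of the regulated secretory pathway. Egr3 and Pcsk1 followed Bdnf without any removal too (r = 0.96 and 0.95). Egr3 ran from 14.8 to 79.3 CPM and Pcsk1 from 61.2 to 239.4 CPM, and both were highest in Slit1 knockdown unstressed replicate 7, as Bdnf was.

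**Figure D4:**
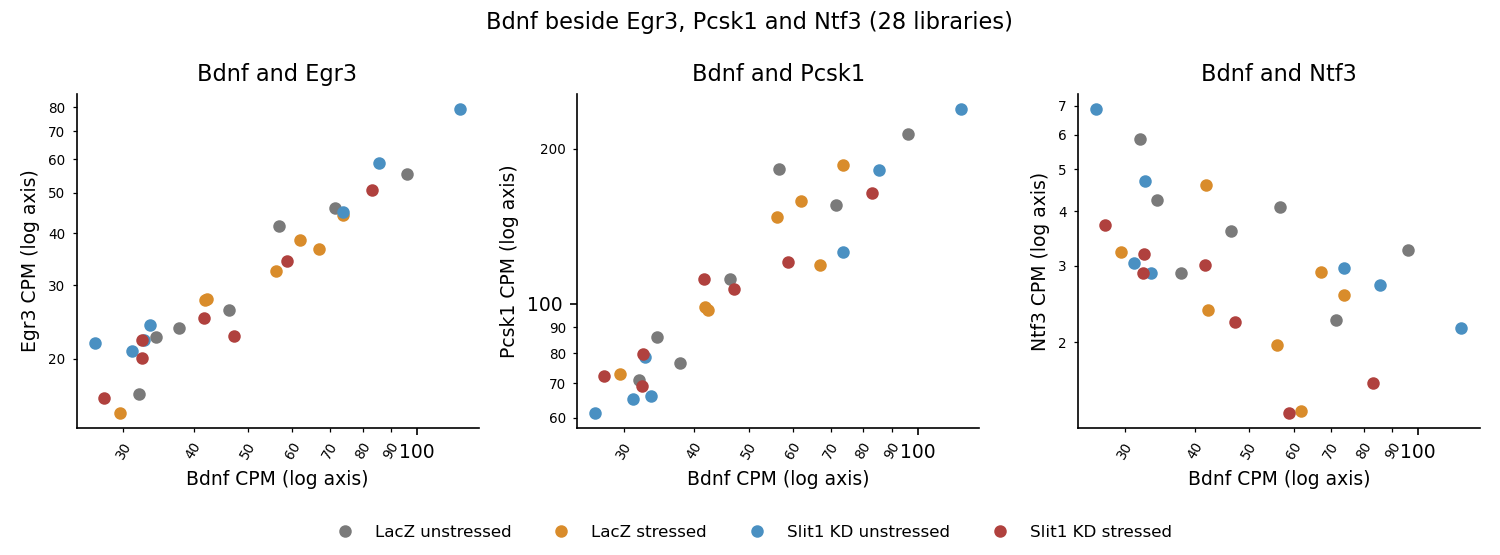
Bdnf (horizontal, CPM, log axis) against Egr3, Pcsk1 and Ntf3 (vertical, CPM, log axes) in 28 libraries coloured by group. Egr3 (r = 0.96) and Pcsk1 (r = 0.95) rise with Bdnf, and Ntf3 falls (r = -0.56).

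The list of genes induced by TrkB signalling or activity, which holds Egr3, lay on the same side for Bdnf. After removal 21 of its 24 genes had a positive r with Bdnf (median 0.58), and 13 of 24 had an r over 0.5 where 12.4% of all other genes did. Crh, Homer1, Adcyap1 and Syt4, named for their values, had 0.88, 0.86, 0.83 and 0.83, and Nr4a2 had -0.66. Without removal the median was 0.12, and some genes had the other sign, such as Arc at -0.43 in place of 0.64. With Ntf3 the median of this list was -0.37 (5 of 24 above 0), with Ntrk2 0.08, with Ngfr -0.25, with Ntrk3 0.26 (16 of 24) and with Sort1 0.33 (18 of 24).

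The other members had other nearest genes. Ntf3 was nearest to Kirrel3 (r = 0.86), a synaptic adhesion gene, Cacnb2 (r = 0.85), a calcium channel subunit gene, and Tox3 (r = 0.85). Ntrk2 was nearest to Nell2 (r = 0.90), which encodes a secreted neuronal glycoprotein, Ank2 (r = 0.90), a membrane scaffold gene, and Nf1 (r = 0.89), a Ras GTPase-activating protein gene. Ntrk3 was nearest to Kif26b (r = 0.94), Lrrc3b (r = 0.92) and Sh3gl2 (r = 0.92), the last an endocytic gene of nerve terminals. Sort1 was nearest to Ypel1 (r = 0.95), Megf9 (r = 0.94) and Dact3 (r = 0.93). Ngfr reached 0.79 with the neuropeptide receptor gene Npffr2, 0.77 with the proteoglycan gene Vcan and 0.77 with Slco5a1, which were 0.71, 0.72 and 0.69 without the 3 libraries that stand apart. Several of these depend on the removal: without it r was 0.19 for Cacnb2 with Ntf3, 0.14 for Nf1 with Ntrk2, -0.45 for Megf9 with Sort1, and 0.26, -0.19 and 0.04 for Npffr2, Vcan and Slco5a1 with Ngfr.

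Since Bdnf moved so closely with Pcsk1, promoters were searched on both strands for the cyclic AMP response element to which CREB binds, spelled TGACGTCA, and for its variant TCACGTCA known from Bdnf. Windows of 300 bases, 250 before to 50 after a start site, came from RefSeq on GRCm38.p6, and 2.21% of the 32851 windows held a match. The table held 7 windows for Bdnf, 2 for Ntf3, 1 for Ntrk2, 1 for Ngfr and 1 for Pcsk1. Of the 11 windows of members 1 held a match, the third of Bdnf along the chromosome, and that of Pcsk1 held one too. The 150 bases before these starts are shown because they belong to the ligand and to the convertase gene that followed it, with the match in capitals. It begins 38 bases before the start in Bdnf (chr2:109692286-109692435, plus strand) and 78 bases before it in Pcsk1 (chr13:75089707-75089856, plus strand). The counts cover whole genes and do not tell from which Bdnf promoter a fragment came. TCACGTCA was searched because it is known from Bdnf, so the match there was fixed in advance and is no finding of this search. The share over all windows therefore says nothing about it, and shared control of Bdnf and Pcsk1 was not tested.
Bdnf: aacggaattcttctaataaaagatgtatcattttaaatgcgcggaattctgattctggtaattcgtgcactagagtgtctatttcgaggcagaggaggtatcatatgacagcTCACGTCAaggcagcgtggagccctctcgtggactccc
Pcsk1: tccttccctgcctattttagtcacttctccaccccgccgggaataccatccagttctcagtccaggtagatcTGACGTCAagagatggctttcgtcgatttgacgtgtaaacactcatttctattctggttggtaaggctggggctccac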

How the data were processed

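The authors deposited 1 table of raw counts per library, per the file headers: featureCounts 1.6.2 counted read pairs on whole gene spans of Ensembl release 90 (GRCm38) without a strand option, from alignments whose names say that they were sorted and freed of duplicates. The kit was stranded, per the labels' protocols. HISAT2, Subread, featureCounts, DESeq2, mm10 and GRCm38 are named without versions, per the submitters' processing notes. Introns therefore enter each count, and overlapping or antisense genes are uncertain. No 2 libraries held identical counts.

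Symbols came from a table of gene names (52403 of 52636 identifiers matched), and exons, transcripts and their GC content from GENCODE annotation of GRCm38. The filter filterByExpr left 19171 genes. These were normalized with TMM factors, and edgeR 4.0.16 under R 4.3.3 fitted all 28 libraries with a coefficient for each group (quasi-likelihood, robust). A Benjamini-Hochberg adjusted p under 0.05 was the threshold. CPM refer to the TMM-scaled total, and log2 CPM have a prior count of 2. On simulated data for the label without stress (18972 genes), 48% of 2-fold and 82% of 4-fold changes were recovered. The changed genes all had a mean above 1 CPM, so these shares do not cover Ngfr. Each simulated gene was drawn on its own, without the shared GC slope of the real libraries. Correlations used 100000 permutations, two-sided, adjusted over all genes. The mice are separate animals, per the labels' protocols, and replicate numbers are accession order. Python 3.11.15, NumPy 2.4.6, SciPy 1.17.1, pandas 2.3.3 and matplotlib 3.10.9 were used.

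The members, the gene lists and the 3 libraries that stand apart were chosen with earlier results of these data known. The genes named are the members, the other ligands and receptors, the 4 pathway genes with the smallest p in each comparison, and the 3 genes most like each member, leaving out predicted genes and genes that overlap the member. Some genes that this rule names are not reported here. Others are said to be named for their values. Alternatives were DESeq2 1.42.0, RLE factors, no count filter, a filter at 1 CPM in 7 libraries, the 2 compared groups alone, the GC slope or a title number above 20 as covariate, and omission of 1 library or of the 3. Averages over virus or stress, and relations with the GC slope removed, were added after seeing the data.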

Additional observations from a re-analysis of the deposited data

Results flagged for a closer look

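Of the 24 sets of 7 values (6 genes in 4 groups), 1 held a value far from the rest. Ntrk2 was 828.7 CPM in Slit1 knockdown unstressed replicate 2, where the next library of the group had 632.2 CPM, a gap of 0.721 of the group's range on the log2 scale. Chance alone marks about 1 in 20 such sets. The same library had the highest Ntf3 (6.90 CPM), the lowest Bdnf (26.7 CPM) and the highest Slit1 (59.9 CPM) of all 28.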

How the results depend on the processing

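No comparison called a gene under any alternative run, and the smallest adjusted p of a member over 1148 alternative values was 0.416. Of 42 member fold changes 26 kept their direction throughout. The other 16 changed it, as follows. With the GC slope as covariate, Bdnf was -0.029 for the label without stress and 0.030 for stress under LacZ. With a title number above 20 as covariate, the label without stress gave -0.00022 for Bdnf and 0.0074 for Sort1, and the interaction 0.0096 for Ntf3 and -0.17 for Sort1. Ntrk2 for the label without stress was -0.0036 with DESeq2 and with RLE factors and -0.0033 with 2 groups alone. Without the 3 libraries that stand apart, the interaction was -0.12 for Ngfr and the averaged label effect 0.049 for Bdnf.

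Leaving out 1 library moved 35 of the 42 by over 1.5 times. With 1 library left out at a time, the label without stress ran from -0.18 to 0.31 for Bdnf, -0.28 to 0.097 for Ntf3 and -0.068 to 0.047 for Ntrk2, and with stress from -0.19 to 0.099 for Ntf3 and -0.14 to 0.011 for Ntrk3. Stress under LacZ ran from -0.10 to 0.20 for Bdnf, -0.31 to 0.60 for Ngfr and -0.25 to 0.051 for Sort1, and under Slit1 knockdown from -0.12 to 0.052 for Sort1. The interaction ran from -0.17 to 0.21 for Ntf3 and -0.075 to 0.22 for Sort1, the averaged label from -0.18 to 0.051 for Bdnf and -0.18 to 0.026 for Ntf3, and averaged stress from -0.14 to 0.013 for Sort1.

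Among relations to markers, removing the GC slope gave -0.37, -0.76 and -0.57 for Ntf3, Ntrk2 and Sort1 with microglia and -0.19, -0.62 and -0.50 with endothelium, from values above 0. With oligodendrocyte precursors Ntrk2 turned from 0.24 to -0.40 and Sort1 from 0.62 to -0.50. Of all 90 relations to library measures other than the slope, 24 turned on its removal, 7 of which had passed before it. Ntf3 with excitatory neurons had a rho of -0.048. Without the 3 libraries Ntrk2 with striatal neurons was 0.048 and Sort1 with T cells 0.099. The cause of these changes was not tested.

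Ngfr was left out by the filter at 1 CPM, and the interaction cannot be fitted with 2 groups alone. No paired analysis was possible because the labels number the samples but do not tie a sample of one group to a sample of another. Depth limits Ngfr, and the spread between libraries (biological coefficient of variation 0.467, or 0.257 with the GC slope in the fit) limits the rest.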
